A study of Mus musculus with 24 samples.

Results

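The 40 genes followed here carry cells through DNA replication and mitosis: 4 subunits of the kinetochore's Ndc80 complex, cyclins, mitotic kinases and kinesins, centromere proteins, replication licensing factors and enzymes of deoxynucleotide synthesis. They are a list of names out of 34844 gene names on the array, drawn up with earlier results of these data known. Each gene was read from its brightest probe that was well above background, a flag that the scanner software sets for each spot. At 16 h 29 of the 40 could be tested and at 72 h 27, since a gene entered the test only if some group had it well above background in all 3 of its arrays.

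The samples were live cardiomyocytes isolated from the hearts of 6-week-old mice of a 129SvEv/C57BL/6 background, labelled male, and measured on 24 Agilent 1-colour arrays. Mice were wild type or carried a Top2b deletion labelled as cardiac specific (Top2b-/-). The promoter that drives the deletion, and any Cre that the wild-type mice carry, are not given in the sources used here. Each genotype received doxorubicin (25 mg/kg, intraperitoneal) or PBS, and hearts were taken 16 h or 72 h later, which gives 8 groups of 3 arrays. Whether the 3 arrays of a group come from different animals is not stated, and the p-values cover no more than the spread among them. Top2b encodes DNA topoisomerase II beta, one of the enzymes that doxorubicin poisons.

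A kinetochore is the protein assembly on the centromere that the spindle pulls on. Its outer layer holds the Ndc80 complex, built from Ndc80, Nuf2, Spc24 and Spc25, which binds the microtubules. Most adult cardiomyocytes have left the cell cycle, so transcripts of mitosis are scarce in such cells, while several replication factors, such as Pcna and the Mcm proteins, also serve in DNA repair and are made outside S phase. After DNA damage p53 induces inhibitors of the cell cycle, and Gtse1 and Ckap2 are known both as spindle-associated proteins and as regulators of p53.

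The largest changes were in wild-type hearts at 16 h. There Spc25, Gtse1, Ckap2, Mcm7, Mcm4 and Pcna were higher after doxorubicin. Gtse1 and Ckap2 entered the test only through that group, so their calls are a description. In Top2b-deleted hearts 0% of all genes passed, so that none of the 6 did is no result about them. The difference between the genotypes' responses passed for the 6, again a description for Gtse1 and Ckap2. The letters upstream of these genes show what the promoters share in sequence. The promoter table (RefSeq, GRCm38.p6) matched 32 of the 40 genes. The 250 bases before the annotated start are given, 5′ to 3′, for 5 of the 6 genes called higher in this comparison. Capitals mark 5 motifs searched on both strands, so that a match on the other strand appears as its reverse complement. They are CCAAT, the box that NF-Y binds, the cell cycle homology region as TTTGAA or as TTTAAA, the E2F motif written TTCCCGC, and the p53 consensus decamer.
Spc25, chr2:69206214-69206463, minus strand: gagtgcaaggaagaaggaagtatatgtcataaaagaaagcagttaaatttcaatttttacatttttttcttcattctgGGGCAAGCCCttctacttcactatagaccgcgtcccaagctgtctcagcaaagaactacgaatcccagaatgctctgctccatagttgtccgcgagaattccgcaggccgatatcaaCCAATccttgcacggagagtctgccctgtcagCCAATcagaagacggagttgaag
Gtse1, chr15:85859457-85859706, plus strand: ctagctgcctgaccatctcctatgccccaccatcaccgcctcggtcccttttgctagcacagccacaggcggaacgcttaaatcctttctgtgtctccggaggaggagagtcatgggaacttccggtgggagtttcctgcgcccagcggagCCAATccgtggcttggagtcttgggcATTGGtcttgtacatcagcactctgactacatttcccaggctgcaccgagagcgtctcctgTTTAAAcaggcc
Ckap2, chr8:22185820-22186069, minus strand: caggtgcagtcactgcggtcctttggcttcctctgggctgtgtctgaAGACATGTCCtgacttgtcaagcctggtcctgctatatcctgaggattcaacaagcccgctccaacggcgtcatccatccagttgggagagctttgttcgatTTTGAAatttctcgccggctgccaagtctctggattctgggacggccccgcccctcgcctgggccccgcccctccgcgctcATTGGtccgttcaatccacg
Mcm7, chr5:138171884-138172133, minus strand: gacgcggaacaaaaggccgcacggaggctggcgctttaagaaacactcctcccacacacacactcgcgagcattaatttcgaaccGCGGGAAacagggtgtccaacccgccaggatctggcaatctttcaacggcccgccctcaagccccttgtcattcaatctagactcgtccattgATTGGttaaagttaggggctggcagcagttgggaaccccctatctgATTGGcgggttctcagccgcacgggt
Pcna, chr2:132253181-132253430, minus strand: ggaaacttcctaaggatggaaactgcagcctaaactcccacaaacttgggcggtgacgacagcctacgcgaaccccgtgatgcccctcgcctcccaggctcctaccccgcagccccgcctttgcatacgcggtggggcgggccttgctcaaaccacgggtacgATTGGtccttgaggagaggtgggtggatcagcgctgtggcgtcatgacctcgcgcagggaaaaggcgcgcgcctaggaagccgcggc

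A CCAAT was found in all 5 windows and in 24 of the 32 matched members, against 33.8% of all 32851 windows of 250 bases in the table. Spc25, Gtse1 and Mcm7 held 2 each, and Ckap2 and Pcna 1 each. A p53 consensus decamer was found in the windows of Spc25 and Ckap2, and in 6 of the 32 members, against 7.13% of all windows. TTTGAA was found in Ckap2 (16.0% of all windows), TTTAAA in Gtse1 (12.1%) and TTCCCGC in Mcm7 (3.82%). These matches describe letters in a fixed window and were not tested as binding sites. The 5 windows were picked by the genes' calls, and Gtse1 and Ckap2 entered the test only through the group where they are high. The counts over the 5 are thus a description. The start used is the outermost in the table where a gene has several.

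The arrays gave limits that touch what follows. The 75th percentile of processed signal was 145.7 to 282.2 over the 24 arrays, and 42.9% to 52.6% of spots were well above background. Top2b checked the labels: at 16 h its level was 4.03 to 4.39 on the 6 wild-type arrays and 2.54 to 3.34 on the 6 Top2b-deleted arrays, and at 72 h 3.25 to 3.65 against 2.13 to 3.07. A level is log2 of the processed signal minus the 75th percentile of its array, so 0 is that percentile. The genotype characteristic of 4 arrays at 16 h goes against their titles, and Top2b on all 4 lay with the title, which is used here. Although all mice are labelled male, the Y-linked transcript of Ddx3y passed the background flag on 7 of the 24 arrays: all 3 wild-type PBS arrays of 16 h, 1 array each of wild-type and Top2b-deleted doxorubicin at 16 h, and 1 PBS array of each genotype at 72 h. At 16 h the wild-type arrays all lay on slide 1 and the Top2b-deleted doxorubicin arrays all on slide 2, with 2 of the Top2b-deleted PBS arrays on slide 1 and 1 on slide 2. At 72 h replicates 2 and 3 of every group lay on one slide and replicate 4 on another. The times used different slides, so that time and slide cannot be told apart, and values of the 2 times are given without a test of their difference.

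Detection divided the 40 genes. On all 24 arrays 19 were well above background: Spc25, Spc24, the 3 D cyclins Ccnd1, Ccnd2 and Ccnd3, Ccne1, Cdc20, Cenpa, Birc5, Mcm2 to Mcm7, Pcna, Rrm1, Rrm2 and Tyms. Another 9 were well above background on 6 to 23 arrays, namely Ndc80, Cenpe, Ccna2, E2f1, Ccnb2, Kif20a, Aurka, Plk1 and Mki67. A further 8 were so on 1 to 5 arrays: Ccnb1 and Ckap2 on 5, Gtse1 on 3, and Nuf2, Bub1b, Kif11, Kif23 and Cdc6 on 1 each. Aurkb, Bub1, Ccne2 and Cenpf were not well above background on any of the 24. The 6 Mcm genes, Pcna, Rrm1, Rrm2 and Tyms were therefore measured throughout. In contrast the licensing factor Cdc6, the checkpoint kinases Bub1 and Bub1b, the spindle motor Kif11 and the cytokinesis motor Kif23 passed the flag on 1 array at most. Failing the flag means not well above background, which is not the same as no signal. Per array 22 to 31 of the 40 were well above background.

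**Figure D1:**
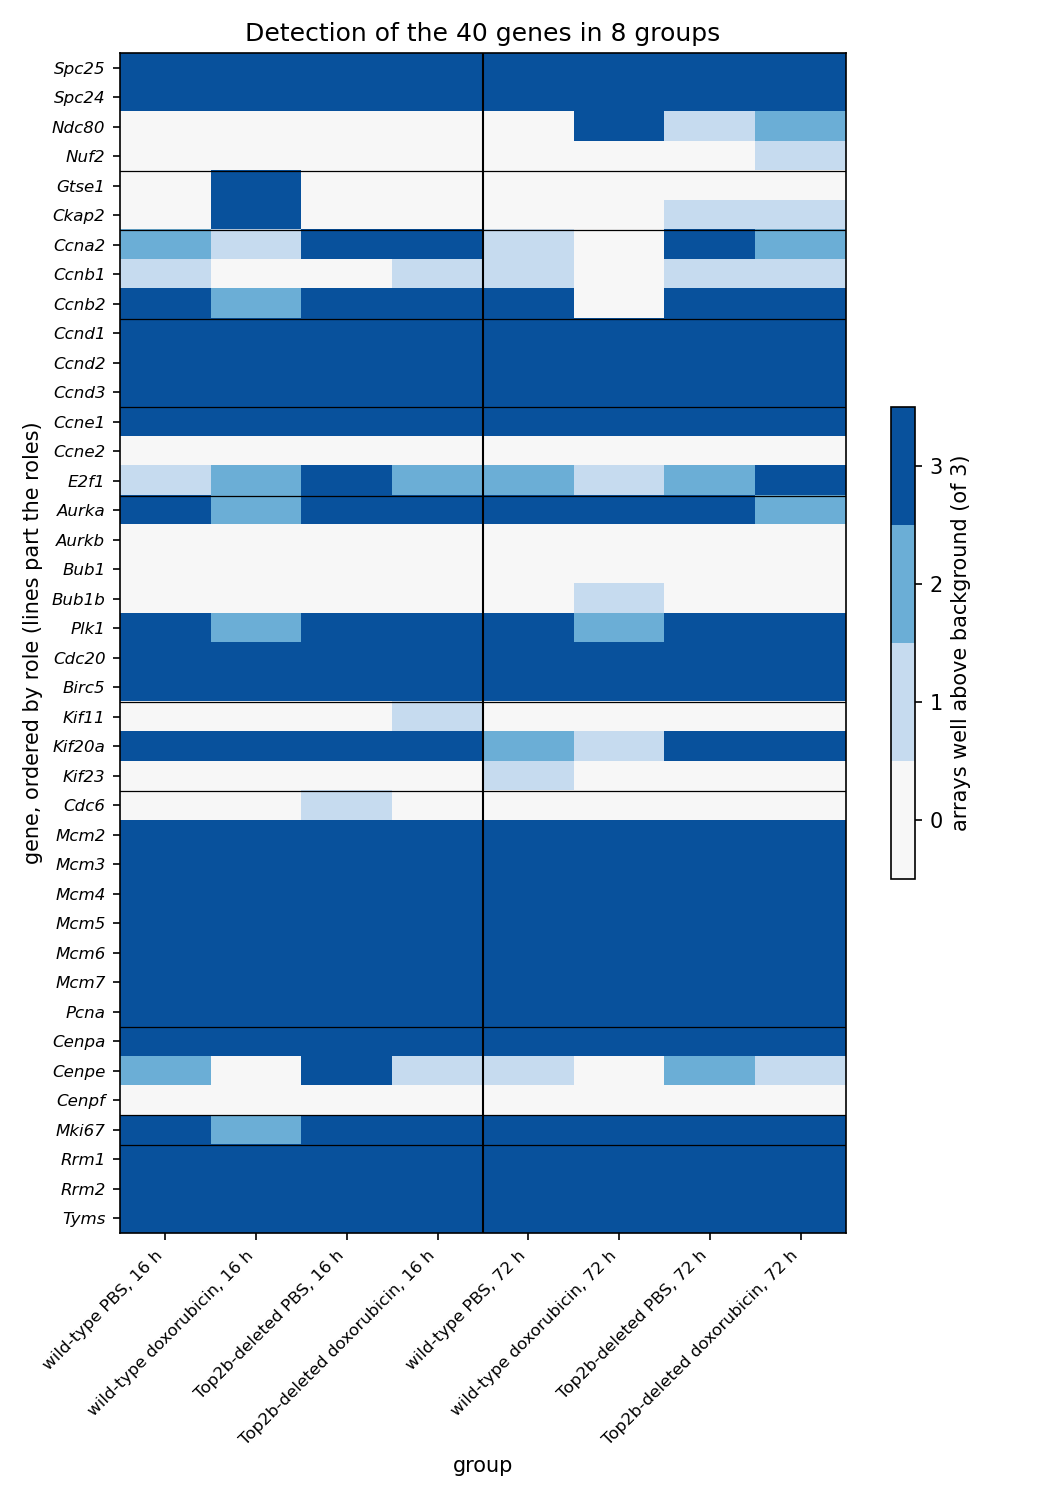
Number of arrays, of 3 per group, on which each of the 40 genes was well above background. Rows are genes ordered by role, columns are the 8 groups. Gtse1 is dark only in wild-type doxorubicin at 16 h, where all 3 arrays measured it, and Ckap2 is dark there and reaches 1 array in each Top2b-deleted group at 72 h. The Mcm genes are dark in every column.

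The preparations carried cardiomyocyte RNA, with 10 of 10 cardiomyocyte markers well above background on all arrays, and RNA of other cell types beside it. Fewer cells of a type and less RNA per cell cannot be told apart in such bulk samples. Endothelial markers (10 of 10 on all arrays) and smooth muscle and pericyte markers (8 of 8) were measured throughout, fibroblast markers on 8 to 10 of 10, and macrophage markers on 6 to 10 of 10. The sums of these markers are given below, on a linear scale on which 1 is the array's 75th percentile, wherever they moved with a result.

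After doxorubicin at 16 h in wild type 6 members were higher and 2 lower of the 29 tested (limma, Benjamini-Hochberg adjusted p under 0.05 over all 18751 genes). Over all genes tested 27.8% passed, 13.7% higher and 14.1% lower, so the count of members is near the background and the named genes, not the count, are what follows. The median difference of the 29 was 0.08 (log2), against -0.02 for all genes. Those that rose were a kinetochore subunit, both spindle-associated p53 regulators, 2 Mcm subunits and the replication clamp.

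Spc25 rose by 4.11 ± 0.28 (log2 difference ± SE, 3 arrays per group), a 17.3-fold change with an adjusted p of 2.11e-05. Its probe lies at chr2:69031953-69032012 (mm9, minus strand, as the array files give it). The 3 PBS arrays read -1.70, -1.32 and -1.71, and the 3 doxorubicin arrays 3.06, 1.95 and 2.60. All doxorubicin arrays were far above all PBS arrays and above all 6 Top2b-deleted arrays. Of its partners in the complex Spc24 could be measured and did not pass: it read -0.25, -0.29 and 0.04 after PBS and -0.26, -0.34 and 0.34 after doxorubicin (0.08 ± 0.23, adjusted p = 0.832). Ndc80 and Nuf2, the microtubule-binding arm, were not well above background on any of the 12 arrays at 16 h, so these arrays give no level for them.

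Gtse1, a microtubule-tip protein that can carry p53 out of the nucleus, was measured at 16 h only in wild-type doxorubicin. There it read 1.06, 1.41 and -0.42, while the 9 other arrays were not well above background. With the PBS arrays set to the lowest signal that counts as measured, it was at least 18.5-fold higher after doxorubicin. It entered the test only through the group where it is high, as did Ckap2, so their calls are a description and add no support. Its probe lies at chr15:85706887-85706946 (mm9, plus strand).

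Ckap2, a protein of spindle microtubules that also acts on p53, behaved likewise in detection. The doxorubicin arrays read -1.40, -1.87 and -2.45, and no other array of 16 h was well above background, so it was at least 3.07-fold higher. Its probe lies at chr8:23279384-23279443 (mm9, minus strand). The arrays of wild-type doxorubicin were thus the only ones at 16 h on which either of these genes was measured.

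**Figure D2:**
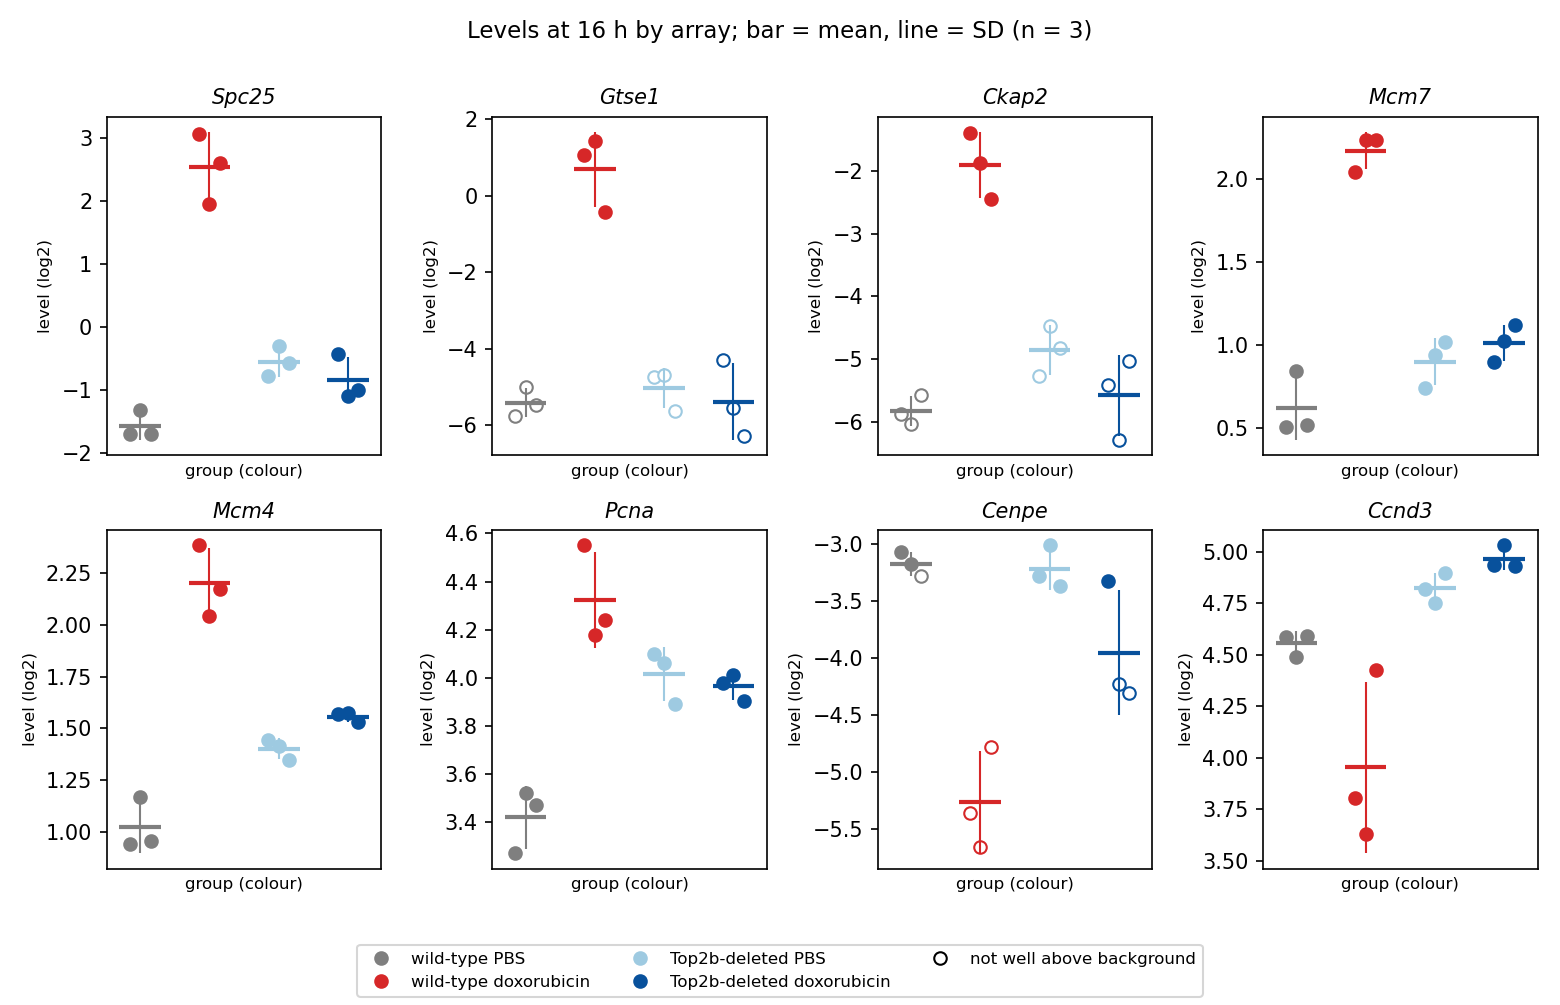
Level (log2 of processed signal minus the 75th percentile of the array) of 8 genes on the 12 arrays at 16 h, by group. Points are arrays, open points are not well above background, bars are means and vertical lines SD (n = 3). Spc25, Gtse1, Ckap2, Mcm7, Mcm4 and Pcna are highest in wild-type doxorubicin with no overlap with any other group, and Cenpe and Ccnd3 are lowest there. Each panel has its own axis.

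Mcm7 and Mcm4, subunits of the hexameric helicase that opens replication origins, rose in every array. Mcm7 read 0.51, 0.85 and 0.52 after PBS and 2.04, 2.24 and 2.24 after doxorubicin (1.55 ± 0.13, adjusted p = 6.77e-05, probe at chr5:138605925-138605984 of mm9). Mcm4 read 0.94, 1.17 and 0.96 against 2.38, 2.04 and 2.17 (1.18 ± 0.11, adjusted p = 0.000111, probe at chr16:15624372-15624431 of mm9). The other 4 subunits of the hexamer did not pass: Mcm3 differed by 0.39 ± 0.26, Mcm5 by 0.04 ± 0.19, Mcm6 by 0.02 ± 0.35 and Mcm2 by -0.57 ± 0.26. Mcm3 has another measured probe, which gave 0.90 between the same groups, and with the mean of both probes it passed (0.64, limma adjusted p = 0.030). Cdc6, which loads the hexamer onto origins, was not well above background on any wild-type array.

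Pcna, the sliding clamp of DNA polymerases in replication and repair, read 3.27, 3.52 and 3.47 after PBS and 4.55, 4.18 and 4.24 after doxorubicin. The difference of 0.90 ± 0.13 (adjusted p = 0.000811, probe at chr2:132075022-132075054 of mm9) left no overlap between the groups. The enzymes that supply deoxynucleotides did not pass: Rrm2 differed by 0.40 ± 0.24, Rrm1 by -0.00 ± 0.13 and Tyms by -0.09 ± 0.25.

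Cenpe, the kinesin that carries chromosomes to the metaphase plate, fell out of measurement. It read -3.06, -3.17 and -3.28 after PBS, where 2 of the 3 arrays were well above background, and was not well above background on any doxorubicin array, which makes it at least 1.41-fold lower (adjusted p of the fit 0.000578). With normexp background Cenpe did not pass (adjusted p = 0.066). At 16 h it entered the test only through Top2b-deleted PBS. Ccnd3, a D cyclin that activates Cdk4 and Cdk6, read 4.59, 4.49 and 4.59 after PBS and 3.81, 3.63 and 4.42 after doxorubicin (-0.60 ± 0.18, adjusted p = 0.0276). The doxorubicin array at 4.42 came close to the PBS arrays without reaching them, and Ccnd3 lost its call in 10 of 24 other settings. Its other measured probe gave -0.57.

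For the remaining cyclins, kinases and centromere genes the wild-type difference at 16 h missed the threshold. Ccne1, whose product drives entry into S phase, came nearest with 0.86 ± 0.30 (adjusted p = 0.0551). Cyclins A and B ranged from -0.79 to -0.53 (Ccnb2 and Ccna2), the 4 tested kinase, checkpoint and anaphase genes from -1.28 (Aurka) to 0.29 (Birc5), Kif20a was at 0.35, E2f1, the transcription factor of S phase entry, at 0.51 and Mki67, the proliferation antigen, at -0.21. Cenpa, the histone variant that marks the centromere, differed by -0.83 ± 0.36 and Ccnd1 by 0.87 ± 0.38, while Ccnd2 was at -0.10, all missing the threshold. Among the tested genes of the kinetochore, spindle and centromere, the mitotic kinases and kinesins and cyclins A and B, those that rose were Spc25, Gtse1 and Ckap2.

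Several measured differences went with this comparison. The wild-type PBS and doxorubicin arrays all lay on slide 1, so it was made within one slide. Y-linked transcripts were present on 3 of 3 PBS arrays and 1 of 3 doxorubicin arrays. With Y status as a covariate, 12 members passed and Spc25 differed by 4.58. With the doxorubicin array that has Y-linked transcripts against the 3 PBS arrays, an alternative chosen after seeing the data in which the lone array is taken to vary like the others, it differed by 4.64 and 12 members passed. Without the 4 arrays whose genotype labels differ, also chosen afterwards, 9 passed and Spc25 differed by 3.78. With genotype taken from the characteristic in place of the title, 0 members passed and Spc25 differed by 2.57. Of the 8 smooth muscle and pericyte markers 6 fell, with sums of 127 to 145 after PBS and 49.2 to 55.3 after doxorubicin. Fibroblast markers fell in 4 of 9 tested, with sums of 29.4 to 41.5 and 27.2 to 53.7, and neutrophil markers rose in 3 of 4 tested (of 9 on the array), with sums of 4.2 to 5.7 and 4.6 to 10.4. The neutrophil markers S100a8 and Camp were each well above background on only 3 of the 12 arrays at 16 h. A call of either that rests on entry through wild-type doxorubicin alone adds no support. Of 10 endothelial markers 1 rose and 2 fell, and of 10 cardiomyocyte markers 1 fell. The part of other cell types in these results was not tested.

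In Top2b-deleted hearts at 16 h no member passed the limma threshold, and neither did any of the 18751 genes (0% called). At an unadjusted p under 0.05 there were 4 members and 791 genes. The 29 members ranged from -0.91 to 0.47, with a median of -0.12 against 0.01 for all genes, and every adjusted p was at least 0.998. Of the 6 genes that rose in wild type, the 4 measured here differed by -0.29 to 0.16.

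Spc25 read -0.78, -0.31 and -0.58 after PBS and -0.43, -1.10 and -1.0 after doxorubicin (-0.29 ± 0.28). Mcm7 read 0.74, 0.94 and 1.02 against 0.90, 1.02 and 1.12 (0.11 ± 0.13), Mcm4 1.44, 1.41 and 1.35 against 1.57, 1.57 and 1.53 (0.16 ± 0.11), and Pcna 4.10, 4.06 and 3.89 against 3.98, 4.01 and 3.90 (-0.05 ± 0.13). Groups overlapped for Spc25, Mcm7 and Pcna but not for Mcm4, whose 3 doxorubicin arrays were all above the PBS arrays by a margin that did not pass. Gtse1 and Ckap2 were not well above background on any of the 6 arrays.

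The members with the smallest p in the Top2b-deleted comparison are given with their values, although none passed. Ccna2, the cyclin of S phase and early mitosis, read -2.47, -2.08 and -2.86 after PBS and -3.53, -3.25 and -3.35 after doxorubicin (-0.91 ± 0.23, unadjusted p = 0.00265). Birc5, the survivin of the chromosomal passenger complex, read -1.15, -0.77 and -1.07 against -1.21, -2.21 and -2.24 (-0.89 ± 0.27, unadjusted p = 0.00818). Ccnb2, a mitotic cyclin, read -1.73, -1.54 and -2.55 against -2.46, -3.01 and -2.88 (-0.84 ± 0.31). Arrays of Ccna2 and Birc5 were apart between the groups, those of Ccnb2 overlapped, and none of the 3 genes passed after adjustment. Cenpe read -3.27, -3.01 and -3.37 after PBS and was well above background on 1 doxorubicin array, at -3.32 (-0.74 ± 0.28). It entered the test at 16 h only through these PBS arrays, where it is higher, so its place here adds no support. Mcm6 read -0.69, -0.35 and -0.91 against -1.09, -1.63 and -1.45 (-0.74 ± 0.35). In this comparison 2 PBS arrays lay on slide 1 and every other array on slide 2, and fibroblast sums were 53.3 to 106 after PBS and 41.4 to 59.7 after doxorubicin. Macrophage sums (10.8 to 16.4 against 6.9 to 10.3) and endothelial sums (43.3 to 54.7 against 36.8 to 43.1) were lower after doxorubicin without overlap, while no single marker passed. Their part was not tested. On slide 2 alone, with 1 PBS array taken to vary like the other groups, 0 members passed by limma, a setting chosen after seeing the data.

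**Figure D3:**
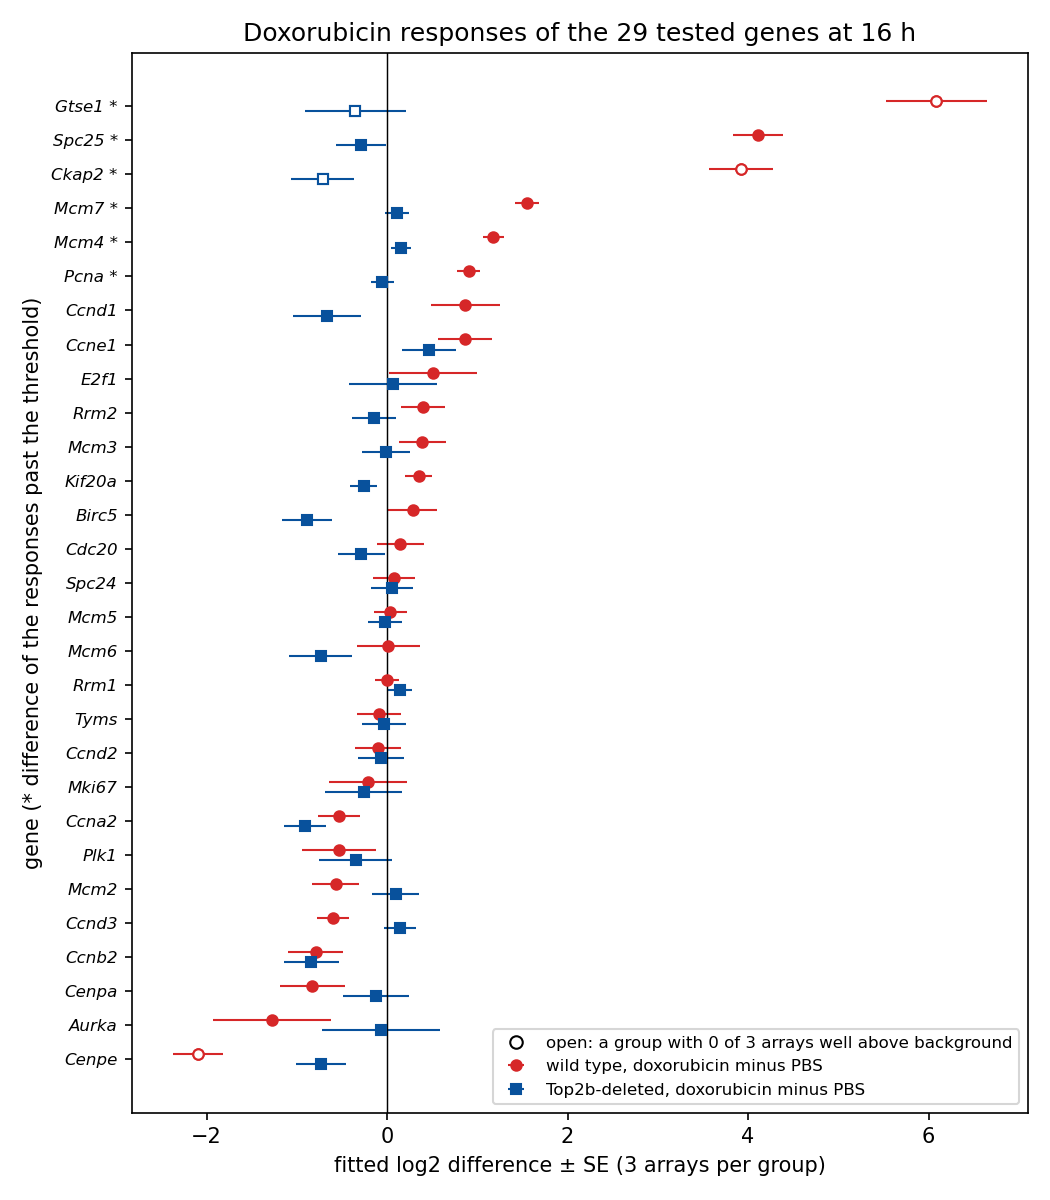
Fitted log2 difference between doxorubicin and PBS at 16 h in wild type (circles) and Top2b-deleted mice (squares) for the 29 tested genes, with SE (3 arrays per group). Open symbols have a group with no array well above background, so that their size is not a measured fold. The 6 starred genes, from Gtse1 to Pcna, have wild-type differences from 0.90 to 6.09 and Top2b-deleted differences from -0.72 to 0.16.

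The difference between the genotypes' doxorubicin responses at 16 h was tested directly, as the Top2b-deleted response minus the wild-type response. Of the 29 members 6 passed, all with the smaller response in Top2b-deleted hearts, where 11.4% of all genes passed, 6.17% with a positive and 5.27% with a negative difference. They were the genes that rose in wild type, and this comparison shares its arrays with the ones above. Spc25 had a difference of -4.40 ± 0.39 (adjusted p = 0.000381), Mcm7 -1.43 ± 0.19 (0.00198), Mcm4 -1.02 ± 0.16 (0.00476) and Pcna -0.96 ± 0.18 (0.0102), each an adjusted p by limma.

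Gtse1 and Ckap2 are counted among the 6, but they entered the test only through wild-type doxorubicin and 9 of the 12 arrays gave no measured signal for either. Their calls here add no support and their fitted differences (-6.44 and -4.64) are not sizes. With slide as a block 4 of the 6 passed, without Mcm4 (-0.96) and Pcna (-0.83). With genotype from the characteristic 0 passed. The doxorubicin arrays of the 2 genotypes lay on different slides throughout, so for them slide and genotype cannot be told apart. Markers passed here too: 2 of 8 smooth muscle and pericyte, 1 of 9 fibroblast and 1 of 10 cardiomyocyte markers with a positive difference. Of 8 tested macrophage and 4 tested neutrophil markers 1 each had a negative one. The limit given above for S100a8 and Camp holds for this neutrophil marker if it is either of them. Smooth muscle and pericyte sums were 127 to 145 after PBS and 49.2 to 55.3 after doxorubicin in wild type. In Top2b-deleted hearts they were 127 to 150 and 111 to 176. The part of other cell types was not tested. With wild-type arrays that have Y-linked transcripts and Top2b-deleted arrays that lack them, so that genotype and Y status cannot be told apart, 12 members passed, and without the 4 arrays of differing labels Spc25 had -4.29.

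Before doxorubicin the genotypes already differed at 16 h. After PBS 5 of the 29 members were higher in Top2b-deleted hearts and 0 lower, where 12.5% of all genes passed, 6.77% higher and 5.68% lower. The median of the 29 was 0.36 against -0.01 for all genes. The 5 belong to the kinetochore, cytokinesis, the chromosomal passenger complex and replication.

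Kif20a, a kinesin of the cytokinetic midzone, read -2.83, -2.28 and -2.49 in wild type and -1.94, -1.77 and -1.68 in Top2b-deleted hearts (0.74 ± 0.15, adjusted p = 0.0133). Pcna was higher by 0.60 ± 0.13 (adjusted p = 0.0151) and Spc25 by 1.02 ± 0.28 (adjusted p = 0.0389), from the array values given above. The Top2b-deleted level of Pcna thus lay between the wild-type levels after PBS and after doxorubicin on every array, as did that of Spc25.

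Mcm3 read -0.12, -0.84 and -1.04 in wild type and 0.25, 0.40 and 0.23 in Top2b-deleted hearts (0.96 ± 0.26, adjusted p = 0.0393). Birc5 read -1.87, -1.62 and -2.29 against -1.15, -0.77 and -1.07 (0.93 ± 0.27, adjusted p = 0.0497). Mcm4 was next, at 0.38 ± 0.11 (adjusted p = 0.0565). No group of these 6 genes overlapped between the genotypes. They were picked by their p in this same comparison, so the lack of overlap is a description and adds no support. The tested cyclins A and B were at 0.75 and 0.90 (adjusted p = 0.0584 and 0.0856). In the other direction Ccne1 was at -0.89 and Spc24, the partner of Spc25, at -0.59, neither past the threshold.

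These calls depended on the setting: Birc5 lost its call in 18 of 24 other settings, Spc25 in 15, Mcm3 in 13, Kif20a in 7 and Pcna in 5. On slide 1 alone, with 2 Top2b-deleted PBS arrays, 0 members passed, and with slide as a block 3 did (Ccna2, Ccnb2 and Pcna). Leaving out 1 array at a time gave 0 to 10, with 0 when Top2b-deleted PBS replicate 2 was left out. Wild-type PBS arrays all had Y-linked transcripts and the Top2b-deleted PBS arrays had none. Fibroblast markers were higher in the same direction, in 5 of 9 tested, with sums of 29.4 to 41.5 in wild type and 53.3 to 106 in Top2b-deleted hearts. Cardiomyocyte sums were 10559 to 11829 in wild type and 8993 to 9366 in Top2b-deleted hearts, without overlap, with 1 of 10 markers higher and 1 lower. Of 10 endothelial markers 2 were lower, and of 8 smooth muscle and pericyte markers 2 were lower and 1 higher. Neutrophil sums (4.2 to 5.7 against 3.7 to 4.0) and lymphocyte sums (11.4 to 12.9 against 9.6 to 10.4) were also lower without overlap, with no single marker past the threshold. Their part in the result was not tested.

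At 72 h the picture in wild type differed. Of 27 tested members 0 were higher and 2 lower after doxorubicin, where 2.69% of all 19672 genes passed, 0.946% higher and 1.75% lower. The median of the 27 was -0.47 against -0.08 for all genes. Spc25, far above PBS at 16 h, read -0.74, -0.98 and -0.80 after PBS and -0.95, -0.96 and -0.97 after doxorubicin (-0.12 ± 0.32). Gtse1 was not well above background on any of the 12 arrays at 72 h, and Ckap2 on none of the 6 wild-type arrays. Pcna differed by 0.09 ± 0.22 and Mcm4 by 0.57 ± 0.19 (adjusted p = 0.109), which reads 0.73, 0.48 and 1.13 after PBS and 1.32, 1.38 and 1.36 after doxorubicin.

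Ccne1, cyclin E1, fell at 72 h. It read -0.37, -0.35 and -0.41 after PBS and -1.34, -1.64 and -1.56 after doxorubicin (-1.14 ± 0.21, adjusted p = 0.0304). Plk1, the kinase that drives mitotic entry and spindle assembly, read -1.92, -1.64 and -1.94 after PBS and -2.63, -2.66 and -3.25 after doxorubicin, the last not well above background (-1.01 ± 0.20, adjusted p = 0.0379). Neither gene's groups overlapped. Ccne1 lost its call in 9 of 21 other settings and Plk1 in 12 of 21.

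Further members came near the threshold. Mcm7 read 0.69, 0.76 and 1.14 after PBS and 1.5, 1.54 and 1.53 after doxorubicin (0.66 ± 0.16, adjusted p = 0.0553). Ccnd2, a D cyclin, read 3.60, 3.51 and 3.33 against 2.97, 2.85 and 2.75 (-0.62 ± 0.15, adjusted p = 0.0572). Rrm2, the small subunit of ribonucleotide reductase, read -0.43, -0.54 and -0.39 against -2.32, -1.79 and -1.78 (-1.51 ± 0.38, adjusted p = 0.0588). The groups of all 3 genes were apart on every array, with Mcm7 above and Ccnd2 and Rrm2 below. As these genes were picked by their p, this is a description and adds no support.

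Ndc80, the kinetochore subunit that grips microtubules, was measured on all 3 wild-type doxorubicin arrays of 72 h, at -3.13, -2.33 and -2.51, and on no PBS array. It was at least 1.87-fold higher, and did not pass. Ccnb2 was measured on all 3 PBS arrays, at -2.81, -2.47 and -1.84, and on no doxorubicin array, which makes it at least 2.64-fold lower (adjusted p = 0.143). Ccna2 was measured on 1 PBS array and Cenpe on 1, at -2.38 and -2.67, and neither on a doxorubicin array. Kif20a differed by -1.91 ± 0.70, Birc5 by -1.76 ± 0.67 and Aurka by -1.37 ± 0.51, and none of the 3 passed. The doxorubicin arrays of Birc5 and Aurka were all below their PBS arrays.

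**Figure D4:**
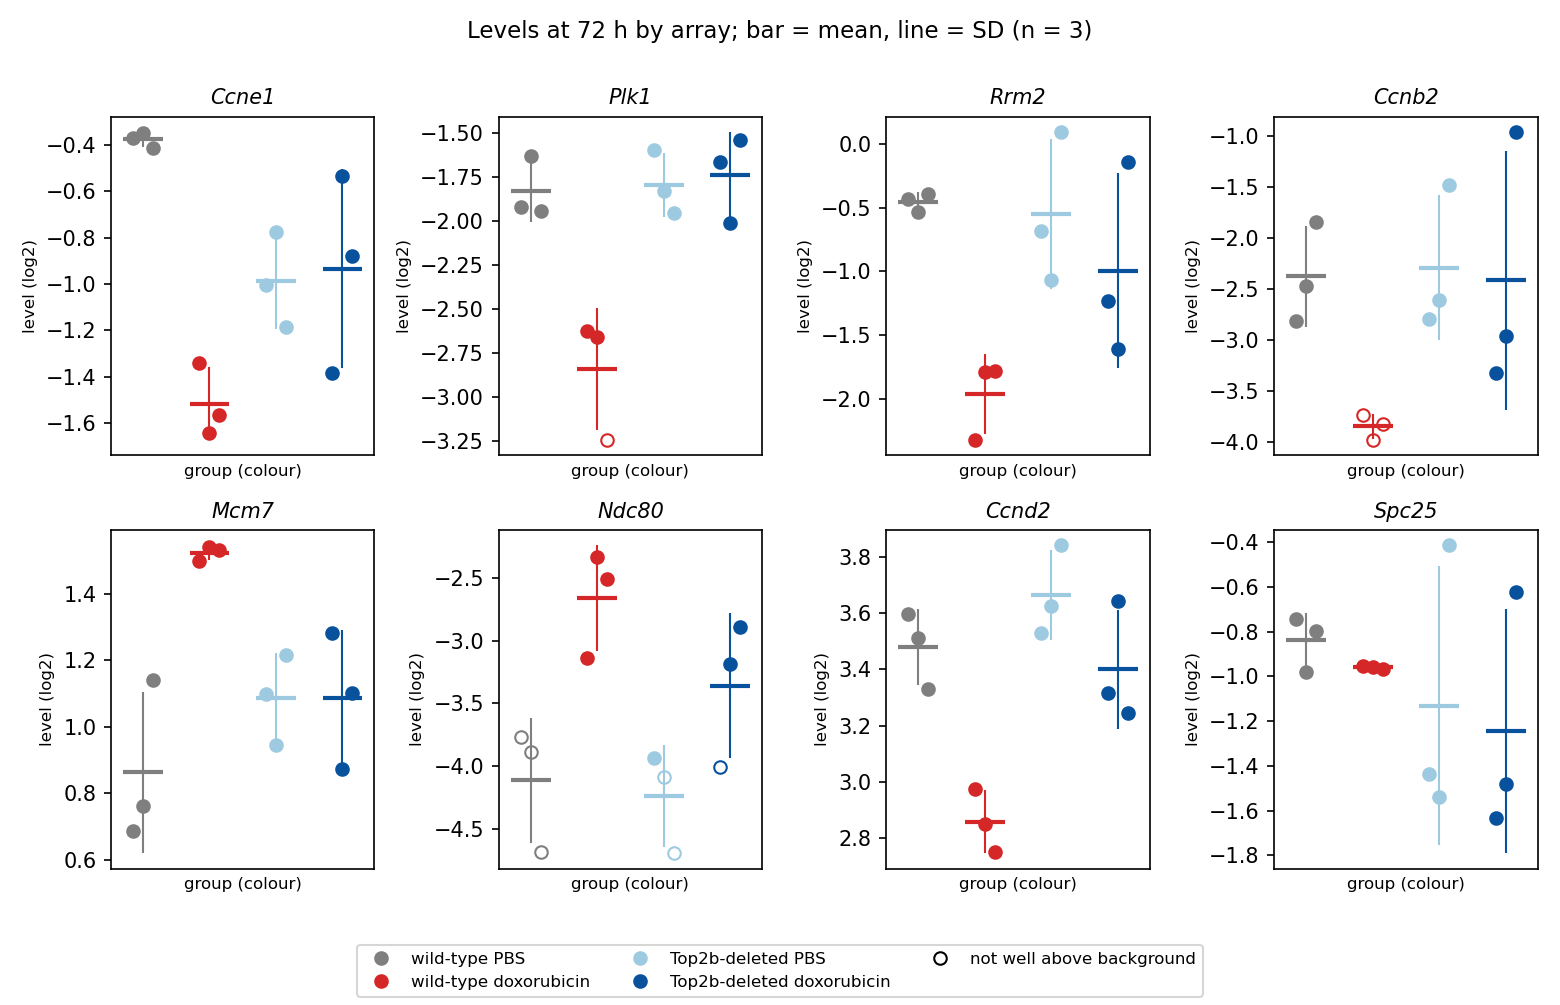
Level (log2 of processed signal minus the 75th percentile of the array) of 8 genes on the 12 arrays at 72 h, by group. Points are arrays, open points are not well above background, bars are means and vertical lines SD (n = 3). Ccne1, Plk1, Rrm2, Ccnb2 and Ccnd2 have their lowest mean and Mcm7 and Ndc80 their highest in wild-type doxorubicin, and Spc25 there lies at -0.97 to -0.95, within the range of the other groups. Each panel has its own axis.

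Replicate 4, the one on another slide, stood apart at 72 h. It gave the highest of the 3 arrays for 16 of 27 tested members in wild-type PBS, and for 20 of 27 in each Top2b-deleted group, but for 7 of 27 in wild-type doxorubicin. The same count was not made over all genes, so this is not shown to be particular to the members. With slide as a block 9 members passed in wild type: Mcm7 and Ndc80 higher, and Ccnb2, Ccnd2, Ccnd3, Ccne1, Plk1, Rrm2 and Spc24 lower. Ndc80 entered the test at 72 h only through wild-type doxorubicin, where it is high, so its call adds no support. On slide 1 alone, with 2 arrays per group, 2 passed, Ccnb2 (-1.22) and Rrm2 (-1.57). Leaving out 1 array at a time gave 0 to 6. Neutrophil markers rose in 3 of 6 tested (of 9 on the array), with sums of 5.1 to 6.4 after PBS and 6.8 to 16.1 after doxorubicin. Of these, S100a8 and Retnlg entered the test only through wild-type doxorubicin, so a call of either adds no support. Endothelial sums were 53.4 to 135 after PBS and 120 to 186 after doxorubicin. Smooth muscle and pericyte sums were 104 to 122 after PBS and 67.1 to 91.1 after doxorubicin, without overlap. By limma 0 of 10 endothelial and 0 of 8 smooth muscle and pericyte markers passed. Their part was not tested.

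In Top2b-deleted hearts at 72 h no member and no gene passed the limma threshold (0% called), with 1 member and 429 genes at an unadjusted p under 0.05. The 27 ranged from -0.87 to 0.88, with a median of -0.12 against -0.01 for all genes. Ndc80 was the one member, at -3.93, -4.09 and -4.70 after PBS and -4.0, -3.18 and -2.89 after doxorubicin (0.88 ± 0.36, unadjusted p = 0.0328), with 1 and 2 arrays well above background. Mcm2 read -0.46, -0.50 and -0.01 against -1.15, -0.64 and -0.45 (-0.42 ± 0.23). Ccnd2 read 3.53, 3.62 and 3.84 against 3.31, 3.64 and 3.24 (-0.26 ± 0.15). Groups overlapped for all 3 genes.

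The spread within the Top2b-deleted doxorubicin group was wide at 72 h. Mcm5 read -1.54, -1.68 and -1.16 after PBS and -3.42, -1.45 and -1.41 after doxorubicin, where replicate 2 was far below the others. Aurka, the kinase of the spindle poles, read -2.10, -2.33 and -1.45 against -3.99 (not well above background), -2.19 and -1.58. Rrm2 read -0.68, -1.07 and 0.09 against -1.23, -1.61 and -0.14, so replicate 4 was the highest in both groups.

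The genotypes after PBS at 72 h differed in 0 of 27 members by limma, where 2.15% of all genes passed, and 3 members had an unadjusted p under 0.05. Ccne1 read -1.0, -0.77 and -1.19 in Top2b-deleted hearts (-0.61 ± 0.21, adjusted p = 0.204), below all wild-type arrays. Ccnd1, the D cyclin that growth signals induce, read 1.73, 1.49 and 2.51 in wild type and -0.10, -0.42 and 1.32 in Top2b-deleted hearts (-1.65 ± 0.60, adjusted p = 0.246). Mcm3 read -1.14, -1.66 and 0.21 against 0.11, -0.25 and 0.44 (0.96 ± 0.42, adjusted p = 0.368), the same size as at 16 h with a wider spread. Ccne1 and Ccnd1 did not overlap between the genotypes.

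The next members by p at 72 h did not pass either. Pcna read 3.07, 2.62 and 3.25 in wild type and 3.32, 3.31 and 3.63 in Top2b-deleted hearts (0.44 ± 0.22). Mcm6 read -0.04, -0.31 and 0.04 against -1.16, -1.66 and -0.28 (-0.93 ± 0.51). Spc24 read 0.19, 0.09 and -0.37 against -0.25, -0.44 and -0.43 (-0.34 ± 0.21). Kif20a, Spc25 and Birc5, which passed at 16 h, were at 0.11 ± 0.70, -0.29 ± 0.32 and -0.51 ± 0.67.

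The difference between the responses at 72 h passed in 0 members and in 0% of genes by limma, with 5 members and 1389 genes at an unadjusted p under 0.05. Ccne1 (1.20 ± 0.29, adjusted p = 0.69) and Plk1 (1.07 ± 0.29, adjusted p = 0.69) were the nearest: after doxorubicin Ccne1 read -1.39, -0.53 and -0.88 and Plk1 -1.67, -2.01 and -1.54 in Top2b-deleted hearts. Mcm7 (-0.66 ± 0.23), Mcm4 (-0.71 ± 0.27), Spc24 (0.74 ± 0.29) and Rrm2 (1.07 ± 0.53) followed. In Top2b-deleted hearts Mcm7 read 1.10, 0.95 and 1.22 after PBS and 1.28, 0.87 and 1.10 after doxorubicin, and Mcm4 1.09, 1.08 and 1.10 against 1.22, 0.60 and 1.03. Spc24 read -0.35, -0.27 and -0.45 after doxorubicin in Top2b-deleted hearts and -0.37, -1.14 and -0.74 in wild type. No difference of responses was thus called for a member at 72 h.

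Other genes of the same pathways give the setting for the members at 16 h in wild type. Of 33 tested genes in a list of other kinetochore and mitosis genes (67 on the array) 7 were higher and 6 lower after doxorubicin, beside 13.7% higher and 14.1% lower over all genes. A share near that background is no result about a list, so for this list and the next the named genes are what the data show. Ncapd2, a condensin subunit, fell by 1.85 ± 0.22 (adjusted p = 0.00035). Zwint, which links the outer kinetochore to the checkpoint, rose by 1.04 ± 0.16 and Incenp, the scaffold of the chromosomal passenger complex, by 1.21 ± 0.19. Cenpk, an inner kinetochore subunit, was measured on 3 of 3 doxorubicin and 0 of 3 PBS arrays, at least 2.64-fold higher.

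Of 40 tested in a list of other replication genes 10 were higher and 4 lower. Fen1, the flap endonuclease of replication and repair, rose by 2.09 ± 0.37 and Cdt1, which licenses origins, by 0.92 ± 0.20. Pole, the catalytic subunit of polymerase epsilon, fell by 0.71 ± 0.12 and Slbp, which binds histone messages in S phase, by 0.66 ± 0.13. The list of kinases, their inhibitors and Rb-E2F genes was also near the 27.8% called over all genes (13.7% higher and 14.1% lower). With 7 higher and 1 lower of 33, its named genes are what the data show. Among them were the inhibitors Cdkn1a (3.09 ± 0.41, adjusted p = 0.000613) and Cdkn2b (2.53 ± 0.31, measured on 1 of 3 PBS arrays), the kinase Wee1, which holds back mitosis (2.89 ± 0.42), and the phosphatase Cdc25a, which opposes it (0.80 ± 0.19). Inhibitors and an activator of the cycle rose side by side.

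A list of p53 targets, drawn up for cell cycle arrest, had 8 of 15 higher and 0 lower, beside 13.7% higher and 14.1% lower over all genes. Phlda3 was at 3.09 ± 0.23, Trp53inp1 at 3.53 ± 0.39 and Plk2 at 2.20 ± 0.26. It shares Cdkn1a and Ccng1 with the list of kinases and inhibitors, and it holds the member Ccnd1. Whether each of its genes arrests the cycle was not tested. None of these 4 lists had a member past the threshold after doxorubicin in Top2b-deleted hearts at either time. As 0% of all genes passed there, this is no result about the lists. At 72 h in wild type the first 2 lists had 0 in either direction, the kinases and inhibitors 1 higher (Cdkn1a, 1.97 ± 0.41, adjusted p = 0.0411), and the p53 targets 3 higher and 1 lower. Over all genes 0.946% were higher there and 1.75% lower. Plk2 was at 1.57 ± 0.21 and Phlda3 at 1.31 ± 0.30, and Gadd45a fell by 1.0 ± 0.18. Cdkn1a, Plk2 and Phlda3 were thus higher at both times.

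Top2a, the topoisomerase II of dividing cells, was well above background on 3 of the 24 arrays. These were wild-type doxorubicin replicate 1 (-1.95) and Top2b-deleted PBS replicate 2 (-3.39) at 16 h, and Top2b-deleted PBS replicate 3 (-1.78) at 72 h.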

How the data were processed

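RNA (100 ng) from each sample was labelled with Cy3 and hybridised to an Agilent 1-colour array, per the labels. The deposited scanner files hold the intensity of 62976 spots per array, which the authors extracted with version 10.7.3.1 of Agilent's Feature Extraction software according to the deposited headers, with background-subtracted processed signals, a flag for spots well above background, and probe positions on mm9. The deposited value table is, for each array, the ratio of the processed signal to its median: setting the table against the scanner files left an SD of at most 1.54e-06 (log2), and each column's median was 1. It gives the array median scaling in the closing section.

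Control spots (leaving 59305 spots) and outlier spots (89 to 277 per array) were left out, and no spot was saturated. Levels are log2 processed signal minus each array's 75th percentile, with spots of one probe averaged. A probe was kept where all 3 arrays of some group had it well above background, and a gene was read from its brightest kept probe: 18751 genes at 16 h and 19672 at 72 h. Each time was fitted on its own with limma 3.58.1 (R 4.3.3, lmFit and eBayes, 8 residual degrees of freedom) over its 4 groups, with Benjamini-Hochberg adjustment over all genes, a threshold of 0.05, and no covariate. The fits were tested on simulated data. Gene names are those of the array's design. Of the members 31 have 1 probe, 6 have 2 and 3 have 3, and Ccnd3, Mki67 and Mcm3 have a further measured probe.

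For a gene measured on no array of one group, the ratio is a lower bound, against the higher, per array, of the gene's own signal and the dimmest probe that the flag passes. Named members are those past the threshold in any comparison, those measured in one group and in no array of the other, and the 6 with the smallest adjusted p in each comparison, with the rest given by role. Where arrays of named members are said to be apart or to overlap, this describes genes mostly picked by their p. The share of all genes without overlap was not counted. Further pathway genes are the 4 with the smallest adjusted p past the threshold in each list and doxorubicin comparison. The members and all gene lists were chosen with earlier results of these data known. Numbers shared between groups were checked as pairs by the correlation of deviations from group means: it was over 0.1 for every number in Top2b-deleted doxorubicin against PBS at 16 h (0.12 to 0.29) and at 72 h (0.27 to 0.73) and between genotypes after PBS at 72 h (0.35 to 0.55), and not in wild-type doxorubicin against PBS at either time (-0.12 to 0.09 and 0.00 to 0.48) or between genotypes after PBS at 16 h (-0.04 to 0.07). Groups of 3 cannot reach an exact permutation p under 0.10, so none was used. The number of arrays limits the precision.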

Additional observations from a re-analysis of the deposited data

Results flagged for a closer look

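For 6 genes the doxorubicin response at 16 h differed between the genotypes by the test of the difference itself, given here as the Top2b-deleted response minus the wild-type response (log2): Spc25 at -4.40, Mcm7 at -1.43, Mcm4 at -1.02 and Pcna at -0.96. Gtse1 at -6.44 and Ckap2 at -4.64 are fitted values that rest on arrays not well above background in every group but wild-type doxorubicin. The 12 arrays of this comparison include the 4 whose genotype labels differ, and the doxorubicin arrays of the genotypes lie on different slides.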

How the results depend on the processing

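The members past the threshold in wild type after doxorubicin at 16 h (8) numbered 7 to 12 under the other settings and 7 to 11 with 1 array left out at a time, except for 0 with genotype from the characteristic, and the difference of responses at 16 h (6) went to 0 there and to 12 with wild-type arrays that have and Top2b-deleted arrays that lack Y-linked transcripts, with 6 to 8 when 1 array was left out. The genotype difference after PBS at 16 h (5) gave 3 with normexp background, 8 with quantile normalization, 2 with no filter, 3 with slide as a block, 0 on slide 1 only, 0 with genotype from the characteristic, 3 without the 4 arrays of differing labels and 12 with that same choice by Y status, which compares the genotypes across opposite Y status. The last 2 of these settings were chosen after seeing the data. It gave 0 to 10 when 1 array was left out: 0 without Top2b-deleted PBS replicate 2, 1 without its replicate 1, 2 without any 1 wild-type PBS array or Top2b-deleted doxorubicin replicate 2 or 3, and 10 without wild-type doxorubicin replicate 1. In wild type at 72 h (2) there were 6 with array median scaling, 0 with no filter, 9 with slide as a block, 9 with the replicate block and 0 with Y status as a covariate. Leaving out 1 array there gave 0 to 6: 0 without wild-type PBS replicate 2 or 3, wild-type doxorubicin replicate 3 or 4, or Top2b-deleted PBS replicate 2 or 3, 1 without Top2b-deleted PBS replicate 4, 5 without replicate 2 of either doxorubicin group, and 6 without wild-type PBS replicate 4. The genotype difference after PBS at 72 h (0) gave 1 on slide 1 only (Mcm3) and 0 to 1 when 1 array was left out, 1 without wild-type PBS replicate 4. The cause of these moves was not tested, beyond the smaller number of arrays or larger number of genes that a setting has. The Top2b-deleted response at both times and the difference of responses at 72 h gave 0 members under each setting run, and no named member changed sign past the threshold. The replicate block changed the count of calls by no more than 1 elsewhere.

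Array median scaling moved the share of higher among called genes from 54.4% to 64.0% after PBS at 16 h, from 53.9% to 63.9% in the difference of responses at 16 h, and from 35.1% to 15.3% in wild type at 72 h, where the median over all genes went from -0.08 to -0.18. In the difference of responses at 16 h that median went from 0.00 to 0.12. Genes near background, among them 11 untested members at 16 h and 13 at 72 h, have no measured level to compare.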

Other observations

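Among the further genes of mitosis and replication, some differed between the genotypes after PBS by more than any of the 40 members did, and these were picked out after their values were seen. Pttg1, the securin that holds sister chromatids together until anaphase, was at 2.18 ± 0.15 in Top2b-deleted hearts and 5.85 ± 0.06 in wild type at 16 h (mean level ± SD, 3 arrays each), a difference of -3.67 ± 0.16 (limma, adjusted p = 1.10e-06). At 72 h it differed by -3.97 ± 0.28 (limma, adjusted p = 5.48e-05). Prim2, the large subunit of DNA primase, was measured at 16 h on 3 of 3 wild-type and 0 of 3 Top2b-deleted PBS arrays, at least 3.49-fold lower in the latter (limma, adjusted p = 5.22e-06). Prim2 could not have entered the test through Top2b-deleted PBS, so its call is a description and adds no support. At 72 h 0 of 40 tested genes in its list were called lower in Top2b-deleted hearts. There 1.08% of all genes were lower, against 5.68% at 16 h. The level of Prim2 at 72 h is not given here, so its difference is not shown to be confined to 16 h.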
